A study of Mus musculus with 11 samples.

Results

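The genes of cell proliferation and mitosis were followed in skin and small intestine after vehicle or imiquimod (IMQ) cream. The group comprised 42 genes, chosen by their symbols from the 45777 genes of the deposited table, and all 42 had reads in each of the 11 libraries. They encode cyclins and CDK1, the factors E2F1 and FOXM1, the MCM helicase, enzymes of DNA synthesis, and the machinery of the centromere, the spindle and cytokinesis. RNA sequencing was performed on skin and small intestine of BALB/c mice aged 8 to 10 weeks, which had been shaved before cream was applied. The control group received vehicle cream (Vaseline) and the treated group received cream with 5% IMQ, an agonist of the endosomal receptor TLR7 that causes psoriasis-like dermatitis, and the dose was 62.5 mg each day. According to the sample annotation, cream was put on the back and the right ear for 5 to 8 days, and the days of each mouse were not given. There were 3 control libraries (numbered 1, 2 and 3) and 3 IMQ libraries (4, 5 and 6) of the skin, and 3 control libraries (7, 8 and 9) and 2 IMQ libraries (10 and 11) of the small intestine. The annotation did not state which tissues came from the same mouse or that each library came from a separate mouse, so p-values measure the spread between these libraries, which may in part be technical.

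A dividing cell expresses these genes in waves. The retinoblastoma protein holds back E2F factors until cyclin D and cyclin E kinases inactivate it, and E2F1 then switches on the genes of DNA replication. FOXM1 and the MYB-MuvB complex switch on the genes of mitosis later, when cyclin B and CDK1 drive the cell into division. In skin, dividing cells lie in the basal epidermis and, during the growth phase of the hair cycle, in the hair matrix. In the small intestine, they lie in the crypts, below the villi that carry differentiated enterocytes. Epidermal thickening is a hallmark of psoriasis-like dermatitis, so the comparison asked whether the transcripts of dividing cells changed in treated skin and in the intestine of the same model.

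Each library held between 44995414 and 58526384 counts. The 8 markers of the basal epidermis summed to between 2688 and 6437 FPKM, a level scaled to transcript length and library size, in skin and to between 42.7 and 55.5 FPKM in small intestine, as the tissue labels state. Control library 2 of the skin stood apart from the other skin controls. The 17 hair follicle and hair matrix markers in the table summed to 447, 18.9 and 709 FPKM in control libraries 1, 2 and 3 and to 21.9, 17.1 and 12.0 FPKM in IMQ libraries 4, 5 and 6. *Krt71*, a keratin of the inner root sheath, was at 182, 0.16 and 331 FPKM in the controls and 0.075, 0.191 and 0.121 FPKM with IMQ, and 4 of the 17 markers had no count in control library 2. Library 2 also held 234 FPKM of the 8 villus enterocyte markers, against at most 5.74 FPKM in the other skin libraries and at least 11157 FPKM in small intestine. For that reason, the results of the 42 genes in skin are given with and without library 2.

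The levels of the 42 genes spanned more than an order of magnitude in each group. *Pcna*, which encodes the sliding clamp of the replication fork, ranked highest in all 4 groups, at 90.8 ± 33.7 FPKM in control skin (mean ± SD, n = 3), 73.5 ± 9.04 FPKM in IMQ-treated skin (n = 3), 70.5 ± 7.62 FPKM in control intestine (n = 3) and 72.4 ± 4.05 FPKM in IMQ-treated intestine (n = 2). *Ube2c*, the ubiquitin-conjugating enzyme of the anaphase-promoting complex, ranked next in each group, at 40.7 ± 25.4, 31.2 ± 1.41, 42.9 ± 6.94 and 36.2 ± 1.07 FPKM in the same order. The lowest gene was *Ccne2* (cyclin E2) in the control groups, at 3.38 ± 1.97 FPKM in skin and 2.04 ± 0.486 FPKM in intestine. *Cenpf*, a protein of the outer kinetochore, was lowest in the IMQ groups, at 2.48 ± 0.195 and 1.98 ± 0.0363 FPKM. The median over the 42 genes was 13.8 FPKM in control skin, 9.66 FPKM in IMQ-treated skin, 9.95 FPKM in control intestine and 10.2 FPKM in IMQ-treated intestine. Of the 41 pairs of neighbours in the order of levels, 40 in control skin, 31 in IMQ-treated skin, 36 in control intestine and 28 in IMQ-treated intestine differed by less than the larger of their SDs. The step from *Pcna* to *Ube2c* exceeded it in all 4 groups.

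**Figure D1:**
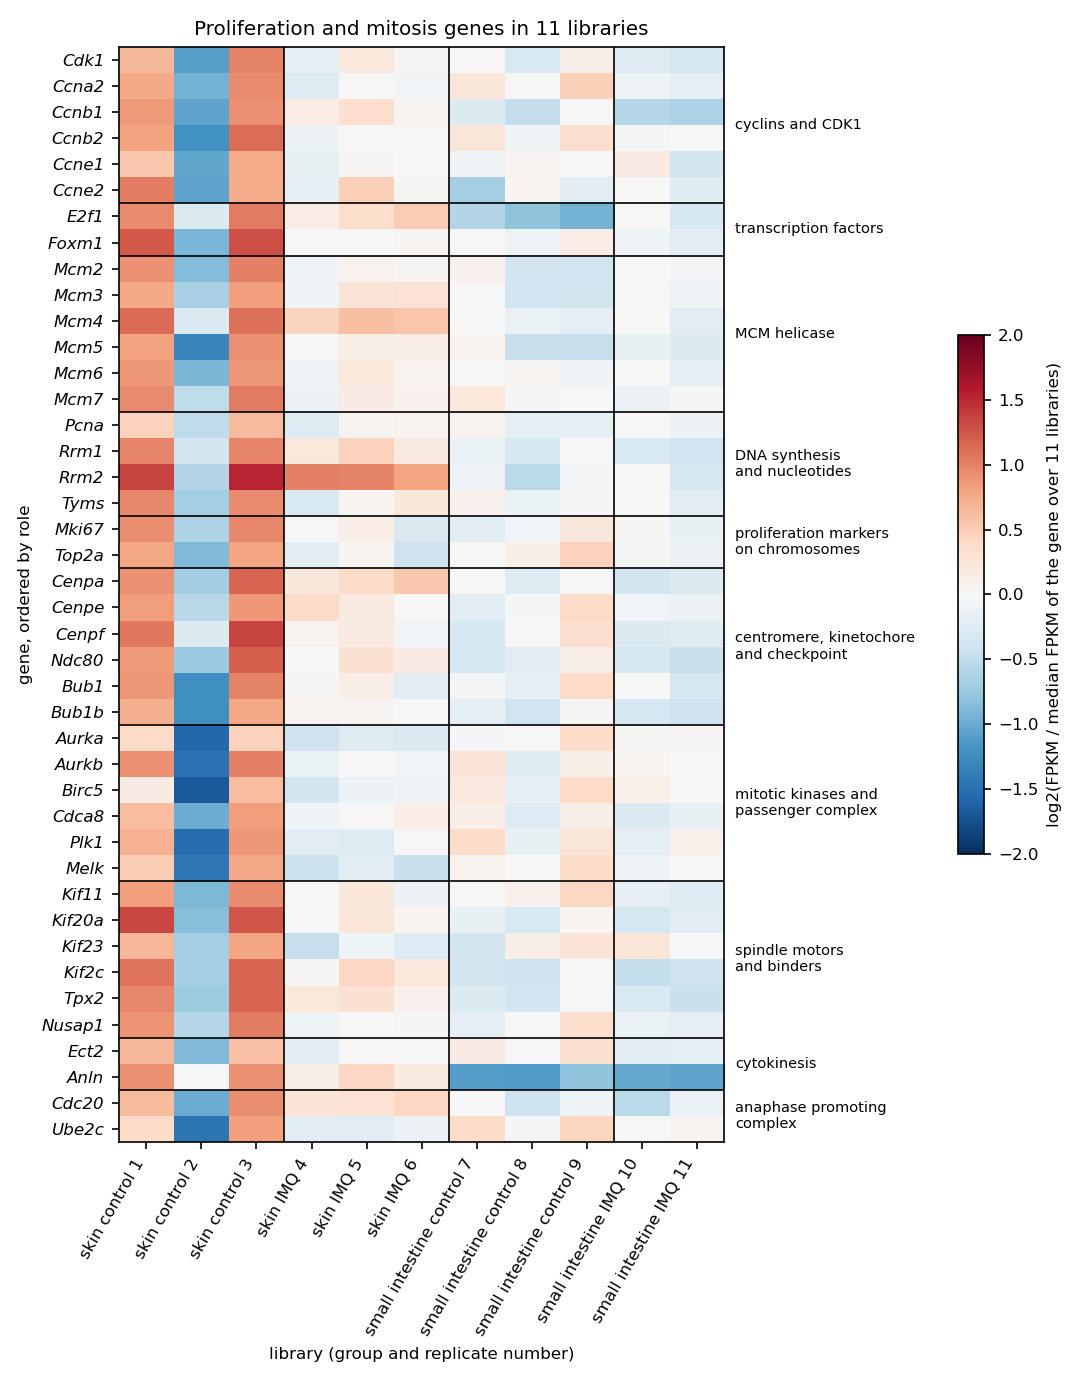
Heatmap of the 42 genes (vertical axis, ordered by role) in the 11 libraries (horizontal axis, by group and replicate number), with color showing log2 of the FPKM over the median FPKM of the gene across the 11 libraries. In skin, control libraries 1 and 3 stand high and control library 2 stands low across the genes, with the 3 IMQ libraries in between.

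Cell cycle factors are known to bind elements in the promoters of many such genes. The promoters of 6 genes are shown as examples with matches from the replication and the mitosis wave. RefSeq promoters of the GRCm38.p6 build, from 250 bases before to 50 bases after the start of the transcript, were found for 35 of the 42 genes. These were searched on both strands for the E2F site (TTTCCCGC, TTTGGCGC or TTTCGCGC), the cell cycle genes homology region, or CHR (TTTGAA or TTCGAA), and the CCAAT box (CCAAT). *Mcm5* (chr8:75109259-75109558, plus strand) and *Mcm6* (chr1:128359656-128359955, minus strand) are examples of the MCM genes. *Ccnb2* (chr9:70421505-70421804, minus strand), *Top2a* (chr11:99024140-99024439, minus strand), *Mki67* (chr7:135716330-135716629, minus strand) and *Cdc20* (chr4:118437294-118437593, minus strand) are examples of mitosis genes with both a CHR and a CCAAT box. Each is written on the strand of its gene, and capitals mark the matches to the 3 elements.
Mcm5: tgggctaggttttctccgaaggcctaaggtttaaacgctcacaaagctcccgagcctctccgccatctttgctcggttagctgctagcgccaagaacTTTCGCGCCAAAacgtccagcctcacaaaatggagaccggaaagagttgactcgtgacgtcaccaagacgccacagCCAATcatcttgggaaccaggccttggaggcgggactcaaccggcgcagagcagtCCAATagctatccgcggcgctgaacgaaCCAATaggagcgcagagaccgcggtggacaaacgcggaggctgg
Mcm6: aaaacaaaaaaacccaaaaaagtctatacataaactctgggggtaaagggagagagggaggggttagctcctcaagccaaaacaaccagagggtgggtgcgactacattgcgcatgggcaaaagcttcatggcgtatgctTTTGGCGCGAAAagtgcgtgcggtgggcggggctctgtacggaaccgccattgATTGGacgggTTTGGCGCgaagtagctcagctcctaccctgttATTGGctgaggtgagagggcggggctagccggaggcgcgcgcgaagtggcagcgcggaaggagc
Ccnb2: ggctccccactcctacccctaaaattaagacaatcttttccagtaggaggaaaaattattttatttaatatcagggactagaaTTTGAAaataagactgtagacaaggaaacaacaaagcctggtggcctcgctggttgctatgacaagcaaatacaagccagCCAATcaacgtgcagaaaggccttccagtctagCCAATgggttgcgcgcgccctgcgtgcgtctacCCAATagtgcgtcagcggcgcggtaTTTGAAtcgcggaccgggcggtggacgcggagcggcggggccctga
Top2a: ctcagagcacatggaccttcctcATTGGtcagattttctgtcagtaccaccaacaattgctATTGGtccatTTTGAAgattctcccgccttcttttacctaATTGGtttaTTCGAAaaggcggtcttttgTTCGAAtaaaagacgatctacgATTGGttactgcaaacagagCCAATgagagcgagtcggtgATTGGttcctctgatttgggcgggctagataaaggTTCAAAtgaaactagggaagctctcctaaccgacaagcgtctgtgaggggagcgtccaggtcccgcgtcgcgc
Mki67: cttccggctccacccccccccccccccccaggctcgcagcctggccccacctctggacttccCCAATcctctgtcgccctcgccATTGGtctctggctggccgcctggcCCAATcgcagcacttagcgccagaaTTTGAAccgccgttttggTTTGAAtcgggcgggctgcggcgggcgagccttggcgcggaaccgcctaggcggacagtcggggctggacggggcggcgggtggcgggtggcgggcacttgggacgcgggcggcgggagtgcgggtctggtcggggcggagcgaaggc
Cdc20: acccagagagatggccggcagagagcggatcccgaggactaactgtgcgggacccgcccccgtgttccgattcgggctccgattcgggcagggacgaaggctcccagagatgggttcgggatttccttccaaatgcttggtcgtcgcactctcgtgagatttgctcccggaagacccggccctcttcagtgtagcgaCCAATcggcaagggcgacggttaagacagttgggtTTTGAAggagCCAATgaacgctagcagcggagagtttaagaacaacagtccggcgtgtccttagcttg
An E2F site was present in 5 of 35 promoters (14.3%, against 1.91% of 27025 genes with a promoter), namely those of *Cdk1*, *Mcm3*, *Mcm5*, *Mcm6* and *Mcm7*. These are 4 of 5 promoters of the MCM genes, 1 of 4 of the cyclins and CDK1 and 0 of 4 of the genes of DNA synthesis. In *Mcm5* and *Mcm6*, matches on opposite strands overlapped, so that a run of capitals there holds more than 1 match. A CHR was present in 21 of 35 promoters (60%, against 19.4% of all), and a CCAAT box in 26 of 35 (74.3%, against 37.9%). Both a CHR and a CCAAT box were found in 18 of 35 promoters (51.4%, against 7.7%). By role, a CHR was found in 5 of 6 promoters of the centromere and checkpoint genes, 3 of 4 of the spindle, 3 of 5 of the mitotic kinases and passenger proteins, and in both of the cytokinesis genes, of *Mki67* and *Top2a* and of *Cdc20* and *Ube2c*. It was found in 2 of 4 promoters of the cyclins and CDK1, 2 of 5 of the MCM genes (*Mcm2* and *Mcm7*), 0 of 4 of the genes of DNA synthesis and not in the window taken for *E2f1*. None of the 3 elements was matched in the windows of *Ccne1*, *E2f1*, *Tyms*, *Birc5*, *Melk* and *Nusap1*. The windows of *E2f1*, *Kif2c*, *Aurka* and *Ect2* lay inside the annotated gene. That of *E2f1* ended at 154569676, while the gene, on the minus strand, reached 154569892. The bases before the outermost start of *E2f1*, *Kif2c*, *Aurka* and *Ect2* were therefore not searched. A match describes the letters of the window and not a bound site.

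In IMQ-treated skin, none of the 42 genes passed the threshold, although all of them had negative fold changes in edgeR, and 39 of 42 did under limma-voom and on the FPKM scale. The log2 fold changes ran from -0.74 to -0.01 with a median of -0.35, while the median over all 20512 genes tested was -0.01. In the quasi-likelihood test of edgeR with Benjamini-Hochberg adjustment, 6.74% of the genes tested were called at an adjusted p under 0.05. The test called 0 of the 42 genes, 0 had an unadjusted p under 0.05, and DESeq2 and limma-voom also called 0. The smallest adjusted p among the 42 in edgeR was 0.28. The groups overlapped for all 42 genes, because control library 2 was the lowest of the 6 skin libraries for each of them, which was so for 21.2% of all genes tested. The 3 IMQ libraries lay above control library 2 and below control libraries 1 and 3 for all 42 genes, an order found for 5.51% of all genes tested. In whole tissue, a change in the number of dividing cells and one in the RNA per dividing cell could not be told apart.

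Among the cyclins and CDK1, which drive the transitions of the cycle, the median log2 fold change in skin was -0.31. *Ccnb1* had 3503, 1009.8 and 3608 normalized counts in control libraries 1, 2 and 3 and 2351, 2581 and 2076 in IMQ libraries 4, 5 and 6. The IMQ libraries of this gene for cyclin B1, the partner of CDK1 at the entry into mitosis, thus fell inside the wide range of the controls. Its log2 fold change was -0.21 (SE 0.43, 95% CI -1.24 to 0.82, Benjamini-Hochberg adjusted p = 0.817 in edgeR). For *Ccnb2*, the IMQ libraries differed by a coefficient of variation (CV) of only 2.04%, whereas the 3 controls had a CV of 60.5%. Over the 42 genes, the median CV was 51.9% among the controls and 8.86% among the IMQ libraries.

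The factors E2F1 and FOXM1 stand at the head of the replication and the mitosis wave. *Foxm1* had 3103, 759 and 3214 normalized counts in control libraries 1, 2 and 3 and 1449, 1401 and 1395 in IMQ libraries 4, 5 and 6. The IMQ values of *Foxm1* were nearly equal to each other and lay between the low and the high controls, and its log2 fold change of -0.74 (SE 0.48, 95% CI -1.88 to 0.40, Benjamini-Hochberg adjusted p = 0.413 in edgeR) had the lowest estimate of the 42 genes. *E2f1* had 1119, 514 and 1180.3 normalized counts in control libraries 1, 2 and 3 and 705, 775 and 846 in IMQ libraries 4, 5 and 6. *E2f1* gave -0.27 (SE 0.30, 95% CI -1.0 to 0.45, Benjamini-Hochberg adjusted p = 0.645 in edgeR), and its IMQ libraries again lay between the control extremes.

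The 6 genes of the MCM helicase, which unwinds DNA at the replication fork, had a median log2 fold change of -0.34 in skin. *Mcm7* had 4809.9, 1899 and 5026 normalized counts in control libraries 1, 2 and 3 and 2524, 2948 and 2715 in IMQ libraries 4, 5 and 6. *Mcm2* had 3907, 1218 and 4113 normalized counts in control libraries 1, 2 and 3 and 2146, 2294 and 2153 in IMQ libraries 4, 5 and 6. Both genes showed the same order of libraries, with library 2 lowest, the IMQ libraries in the middle and libraries 1 and 3 highest. Their log2 fold changes were -0.52 (SE 0.34, 95% CI -1.33 to 0.29, Benjamini-Hochberg adjusted p = 0.418 in edgeR) for *Mcm7* and -0.49 (SE 0.41, 95% CI -1.46 to 0.49, Benjamini-Hochberg adjusted p = 0.532 in edgeR) for *Mcm2*. Among the 4 genes of DNA synthesis, *Pcna* had 6802, 3727 and 7578 normalized counts in control libraries 1, 2 and 3 and 4542, 5445 and 5319 in IMQ libraries 4, 5 and 6. *Pcna* had a log2 fold change of -0.24 (SE 0.26, 95% CI -0.85 to 0.37, Benjamini-Hochberg adjusted p = 0.629 in edgeR). *Rrm2*, a subunit of the ribonucleotide reductase that supplies deoxynucleotides, had the value nearest to 0 among the 42 genes (-0.01, 95% CI -1.09 to 1.07).

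The common histological markers of proliferation followed the same order. *Mki67* had 17846, 6603 and 18011 normalized counts in control libraries 1, 2 and 3 and 10278, 10806 and 7834 in IMQ libraries 4, 5 and 6. *Mki67* (chr7:135689784-135716450 in GRCm38), which encodes the Ki-67 antigen that coats mitotic chromosomes, had a log2 fold change of -0.55 (SE 0.37, 95% CI -1.44 to 0.33, Benjamini-Hochberg adjusted p = 0.428 in edgeR). *Top2a* had 11854, 4031 and 11829.8 normalized counts in control libraries 1, 2 and 3 and 6494, 7519 and 5313 in IMQ libraries 4, 5 and 6. *Top2a*, the topoisomerase that untangles sister chromatids, gave -0.52 (SE 0.39, 95% CI -1.45 to 0.41, Benjamini-Hochberg adjusted p = 0.482 in edgeR). For both genes the highest IMQ library was below control libraries 1 and 3, and the lowest was above control library 2.

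Among the genes of the centromere, kinetochore and checkpoint (median log2 fold change -0.33), *Cenpf* had the smallest p of the 42 genes. *Cenpf* had 2861, 1217 and 3470.2 normalized counts in control libraries 1, 2 and 3 and 1582, 1639 and 1360.5 in IMQ libraries 4, 5 and 6. Its log2 fold change was -0.72 (SE 0.35, 95% CI -1.55 to 0.11, Benjamini-Hochberg adjusted p = 0.28 in edgeR). The 6 mitotic kinases and passenger proteins, among them the Aurora kinases *Aurka* and *Aurkb* and the polo-like kinase *Plk1*, had a median of -0.34. *Aurkb* differed most among the controls, being 4.95-fold and 5.23-fold higher in libraries 1 and 3 than in library 2.

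The 6 spindle motors and binders had the lowest median of the larger groups, -0.51. *Kif23* had 2599.5, 1119.9 and 2838 normalized counts in control libraries 1, 2 and 3 and 1318, 1659 and 1421 in IMQ libraries 4, 5 and 6. *Kif23*, a kinesin of the central spindle needed for cytokinesis, gave -0.58 (SE 0.33, 95% CI -1.36 to 0.20, Benjamini-Hochberg adjusted p = 0.35 in edgeR). *Nusap1* had 2615, 993 and 2728 normalized counts in control libraries 1, 2 and 3 and 1381, 1434 and 1440.0 in IMQ libraries 4, 5 and 6. *Nusap1*, which bundles spindle microtubules, gave -0.58 (SE 0.35, 95% CI -1.41 to 0.26, Benjamini-Hochberg adjusted p = 0.382 in edgeR). For the cytokinesis genes, *Anln* had 3942, 2177 and 3669 normalized counts in control libraries 1, 2 and 3 and 2445, 2920.5 and 2347 in IMQ libraries 4, 5 and 6. *Anln* encodes anillin, the scaffold of the cleavage furrow, and differed least among the controls, with a log2 fold change of -0.34 (SE 0.23, 95% CI -0.89 to 0.20, Benjamini-Hochberg adjusted p = 0.425 in edgeR). *Cdc20* and *Ube2c*, which start and sustain the activity of the anaphase-promoting complex, had values of -0.01 and -0.31.

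**Figure D2:**
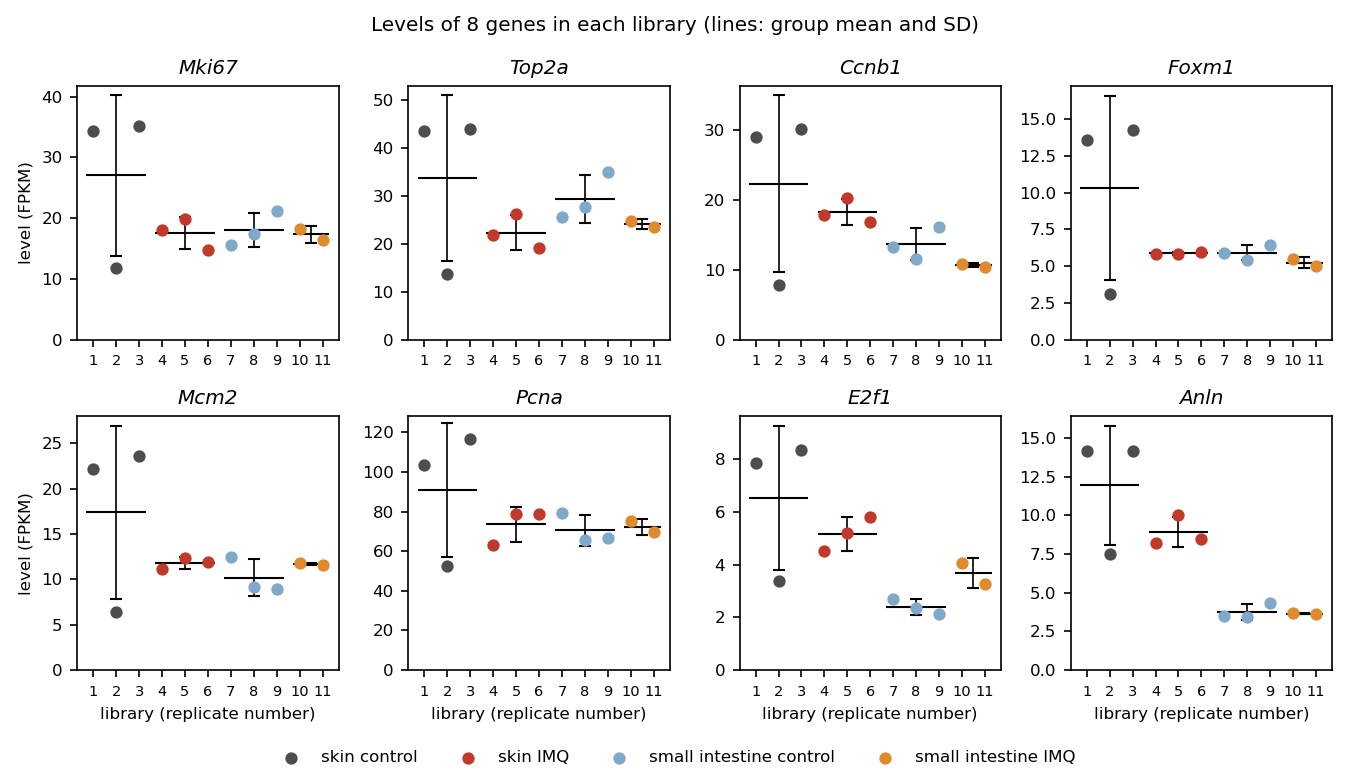
Level (FPKM, vertical axis from 0) of 8 genes in each of the 11 libraries (horizontal axis), with points for libraries and lines for the group mean and SD. In skin the points of control library 2 lie below and those of control libraries 1 and 3 above all 3 IMQ libraries, and in small intestine the IMQ points of *E2f1* lie above its controls.

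The direction of the fold changes in the fit without control library 2 was set in advance. The 3 IMQ libraries lay below control libraries 1 and 3 for all 42 genes. In that fit 37 of the 42 genes were called, all of them lower, against 12.1% of all genes called in either direction and 6.66% called lower. All 42 had an unadjusted p under 0.05, and the median log2 fold change was -0.73. This fit has only 2 controls, which were close to each other and had hair follicle sums of 447 and 709 FPKM. The sums with IMQ were 21.9, 17.1 and 12.0 FPKM. In this fit a difference in treatment cannot be told apart from one in hair follicle content. *Foxm1* had the lowest estimate, -1.16 (adjusted p = 0.00319) in edgeR with Benjamini-Hochberg adjustment, followed by *Kif20a* at -1.11 (adjusted p = 0.00586), a mitotic kinesin. *Mki67* was at -0.89 (adjusted p = 0.0264), *Top2a* at -0.88 (adjusted p = 0.0265), *Mcm2* at -0.87 (adjusted p = 0.00671) and *Ccnb1* at -0.60 (adjusted p = 0.0305) in the same edgeR fit. The 5 genes that were not called were *Ccne2*, *Pcna*, *Rrm2*, *Cenpe* and *Cdc20*, with adjusted p-values between 0.0585 and 0.0966 in edgeR. Without control library 1 the median was -0.19 with 36 of 42 values negative, and without control library 3 it was -0.10 with 31 negative, with 0 genes called in either fit. Compared with library 2 alone, given as a description with no test because that library was singled out by its values, the mean of the IMQ libraries was higher for all 42 genes, by a median factor of 1.88, from 1.18 for *Anln* to 2.83 for *Rrm2*.

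Markers of other structures also differed between the skin libraries, mostly in other orders than the 42 genes. All 3 IMQ libraries lay between control library 2 and control libraries 1 and 3 for 2 of 11 hair follicle, 0 of 5 activated epidermis and 0 of 8 basal epidermis markers tested. The hair follicle markers summed high in control libraries 1 and 3 and low in control library 2 and all IMQ libraries, as given above. Of 11 tested, 10 had negative log2 fold changes with IMQ, with a median of -4.94 over the 11. An unadjusted p under 0.05 in edgeR was found for 10. edgeR called 3, *Hoxc13*, *Shh* and *Lef1*, all lower, against 6.74% of all genes called. From 4 to 5 of the 17 markers had no count in an IMQ library. The activated epidermis markers summed to 993, 644 and 858 FPKM in the controls and 6158, 6626 and 2867 FPKM with IMQ, and 4 of 5 rose, with *Krt6a* at 3.99 (SE 0.44, Benjamini-Hochberg adjusted p = 0.00558 in edgeR). *Krt17* alone held 68.6% of the activated epidermis sum in the controls. The basal epidermis markers summed to 3457, 3611 and 2688 FPKM in the controls and 5886, 6437 and 4742 FPKM with IMQ. *Krt14* and *Krt5* held 82.5% and 95.2% of the basal sum in control and IMQ-treated skin. The median over the 8 basal markers was 69.3, 84.2 and 54.5 FPKM in the controls and 65.1, 62.7 and 53.1 FPKM with IMQ. Of these 8, *Krt14* rose and *Krt15* fell. The part of the hair follicle, of the epidermis and of the intestinal transcripts in library 2 in the values of the 42 genes was not tested.

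**Figure D3:**
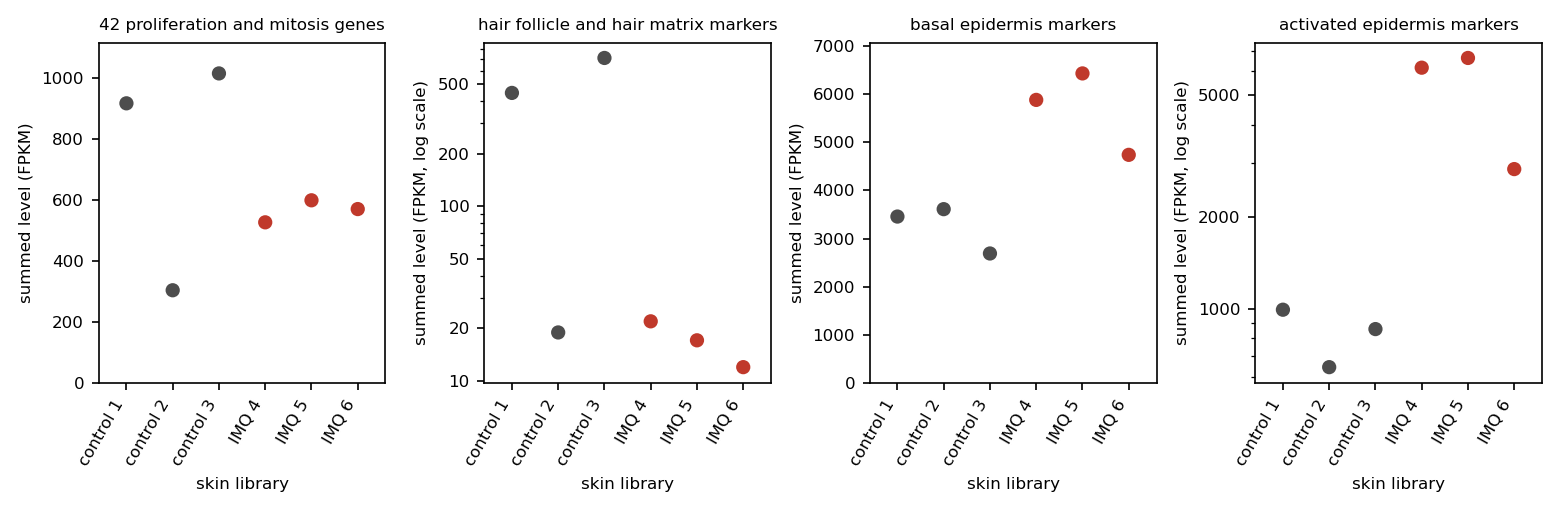
Summed level (FPKM, vertical axes, linear for the 42 genes and the basal epidermis and logarithmic for the other panels) in the 6 skin libraries (horizontal axis). The 42 genes sum to 917, 303 and 1015 FPKM in the controls and 526, 599 and 569.8 FPKM with IMQ, and control library 2 has low hair follicle markers like the IMQ libraries.

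In the small intestine, the values of IMQ and control libraries lay close together. The 42 genes summed to 553, 479 and 576 FPKM in the controls and 502 and 484 FPKM with IMQ. The log2 fold changes ran from -0.37 to 0.67 with a median of -0.14, beside -0.02 over all 19965 genes tested, and 33 of 42 were negative (32 to 34 under the other scalings), beside 53.7% of all genes. The same test in edgeR called 0 of the 42 genes at a Benjamini-Hochberg adjusted p under 0.05, against 2.95% of all genes tested. An unadjusted p under 0.05 was found for 1 gene, *E2f1*, which was also the 1 gene that DESeq2 called (adjusted p = 0.0244, with 6.04% of all genes called), and limma-voom called 0. The intervals were narrower than in skin. The 95% CI lay above -1 on the log2 scale for all 42 genes and below 1 for 41 of them, with *E2f1* as the exception.

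*E2f1* (chr2:154559400-154569892 in GRCm38) had the highest estimate in the intestine. *E2f1* had 433, 347 and 345 normalized counts in control libraries 7, 8 and 9 and 635 and 553 in IMQ libraries 10 and 11. Both IMQ libraries were above all 3 controls, which was so for 15.1% of all genes tested. Its log2 fold change was 0.67 (SE 0.19, 95% CI 0.22 to 1.11, Benjamini-Hochberg adjusted p = 0.165 in edgeR) at an unadjusted p of 0.00971, so it did not pass the threshold. *Foxm1*, the other factor, had a value of -0.14.

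Among the MCM helicase genes, 4 of 6 values were positive (3 of 6 under upper-quartile scaling and on the FPKM scale), and the median was 0.07. *Mcm2* had 2478, 1679.6 and 1812 normalized counts in control libraries 7, 8 and 9 and 2279 and 2422 in IMQ libraries 10 and 11. The controls of *Mcm2* spread over both IMQ values, and its log2 fold change was 0.24 (SE 0.18, 95% CI -0.19 to 0.67, Benjamini-Hochberg adjusted p = 0.704 in edgeR). *Pcna* had 5864, 4512 and 5047 normalized counts in control libraries 7, 8 and 9 and 5436 and 5424 in IMQ libraries 10 and 11. The IMQ libraries of *Pcna* lay within the range of the controls, with a log2 fold change of 0.08 (SE 0.15, 95% CI -0.26 to 0.42, Benjamini-Hochberg adjusted p = 0.903 in edgeR). *Tyms* had 1322, 1082 and 1235 normalized counts in control libraries 7, 8 and 9 and 1000.4 and 999 in IMQ libraries 10 and 11. *Tyms*, the thymidylate synthase, was below all controls in both IMQ libraries, at -0.28 (SE 0.14, 95% CI -0.62 to 0.06, Benjamini-Hochberg adjusted p = 0.522 in edgeR).

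The genes of mitosis had mostly negative values. *Mki67* had 8988, 9483 and 12668 normalized counts in control libraries 7, 8 and 9 and 10426 and 10005 in IMQ libraries 10 and 11. Its IMQ values lay between those of control libraries 8 and 9, with a log2 fold change of -0.02 (SE 0.18, 95% CI -0.45 to 0.40, Benjamini-Hochberg adjusted p = 0.984 in edgeR). *Top2a* had 7807, 7862 and 10982 normalized counts in control libraries 7, 8 and 9 and 7415 and 7530.1 in IMQ libraries 10 and 11. *Top2a* gave -0.25 (SE 0.18, 95% CI -0.68 to 0.18, Benjamini-Hochberg adjusted p = 0.697 in edgeR). Of the cyclins, *Ccna2* had 3917, 3072 and 4725 normalized counts in control libraries 7, 8 and 9 and 3019 and 3038 in IMQ libraries 10 and 11. This gene for cyclin A2, which acts in S phase and G2, had the lowest estimate of the 42 genes in the intestine, -0.37 (SE 0.19, 95% CI -0.81 to 0.07, Benjamini-Hochberg adjusted p = 0.519 in edgeR). *Ccnb1* had 1805, 1464 and 2246 normalized counts in control libraries 7, 8 and 9 and 1444 and 1497 in IMQ libraries 10 and 11. IMQ library 10 of *Ccnb1* was below all controls and library 11 was above control library 8, with a log2 fold change of -0.32 (SE 0.19, 95% CI -0.76 to 0.12, Benjamini-Hochberg adjusted p = 0.586 in edgeR).

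Among the spindle motors, *Kif11* had 2365, 2358 and 3251 normalized counts in control libraries 7, 8 and 9 and 2079.8 and 2101 in IMQ libraries 10 and 11. *Kif11*, the kinesin that pushes the spindle poles apart, gave -0.35 (SE 0.17, 95% CI -0.75 to 0.06, Benjamini-Hochberg adjusted p = 0.498 in edgeR). *Ect2* had 1737, 1458 and 2026 normalized counts in control libraries 7, 8 and 9 and 1284 and 1491 in IMQ libraries 10 and 11. *Ect2*, the exchange factor that activates RhoA at the cleavage furrow, gave -0.33 (SE 0.17, 95% CI -0.73 to 0.07, Benjamini-Hochberg adjusted p = 0.53 in edgeR). In all, both IMQ libraries were below all 3 controls for 5 of the 42 genes, *Ccna2*, *Tyms*, *Top2a*, *Ndc80* and *Kif11*, against 13.9% of all genes tested.

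The control library with the highest value differed between groups of genes in the intestine, which is given as a description with no test. All 6 MCM genes were highest in control library 7, whereas all 6 genes of the centromere and checkpoint and all 6 of the spindle were highest in control library 9. Other genes broke this split, as *Rrm1* and *Rrm2* were highest in library 9 and *Aurkb*, *Plk1* and *Cdc20* in library 7. Over the 42 genes, library 7 was highest for 12 (28.6%, against 36.9% of all genes tested), library 8 for 1 (2.38%, against 33.6%) and library 9 for 29 (69%, against 29.5%). The differences were modest, with a median CV of 19.5% among the controls and a median ratio of 1.47 between the highest and the lowest of the 5 libraries. Without control library 9, the median log2 fold change with IMQ was -0.01 and 22 of 42 values were negative, and without control library 8 it was -0.26 with 36 negative. The crypt base markers summed to 397, 375 and 311 FPKM in the controls and 257 and 228 FPKM with IMQ, and *Olfm4* alone held 83.4% and 81.7% of the sum in the 2 groups. Without *Olfm4* the sums were 61.2, 67.5 and 51.6 FPKM in the controls and 45.5 and 43.5 FPKM with IMQ. All 8 markers had negative log2 fold changes, with a median of -0.41. Both IMQ libraries were below all controls for 6 of them, against 13.9% of all genes tested. edgeR called 1, *Myb*, which was lower with IMQ, against 2.95% of all genes called. The log2 fold change of *Myb*, a transcription factor of progenitor cells, was -0.63 (SE 0.12, Benjamini-Hochberg adjusted p = 0.0391 in edgeR). The villus enterocyte markers summed to 15910.0, 11157 and 17312 FPKM in the controls and 23020.4 and 26350.3 FPKM with IMQ. *Apoa4* and *Fabp1* held 58% of the sum with IMQ. Of these 8 markers 4 had positive and 4 had negative log2 fold changes, and edgeR called 0. The part of the crypt base and of the enterocytes in the values of the 42 genes was not tested.

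**Figure D4:**
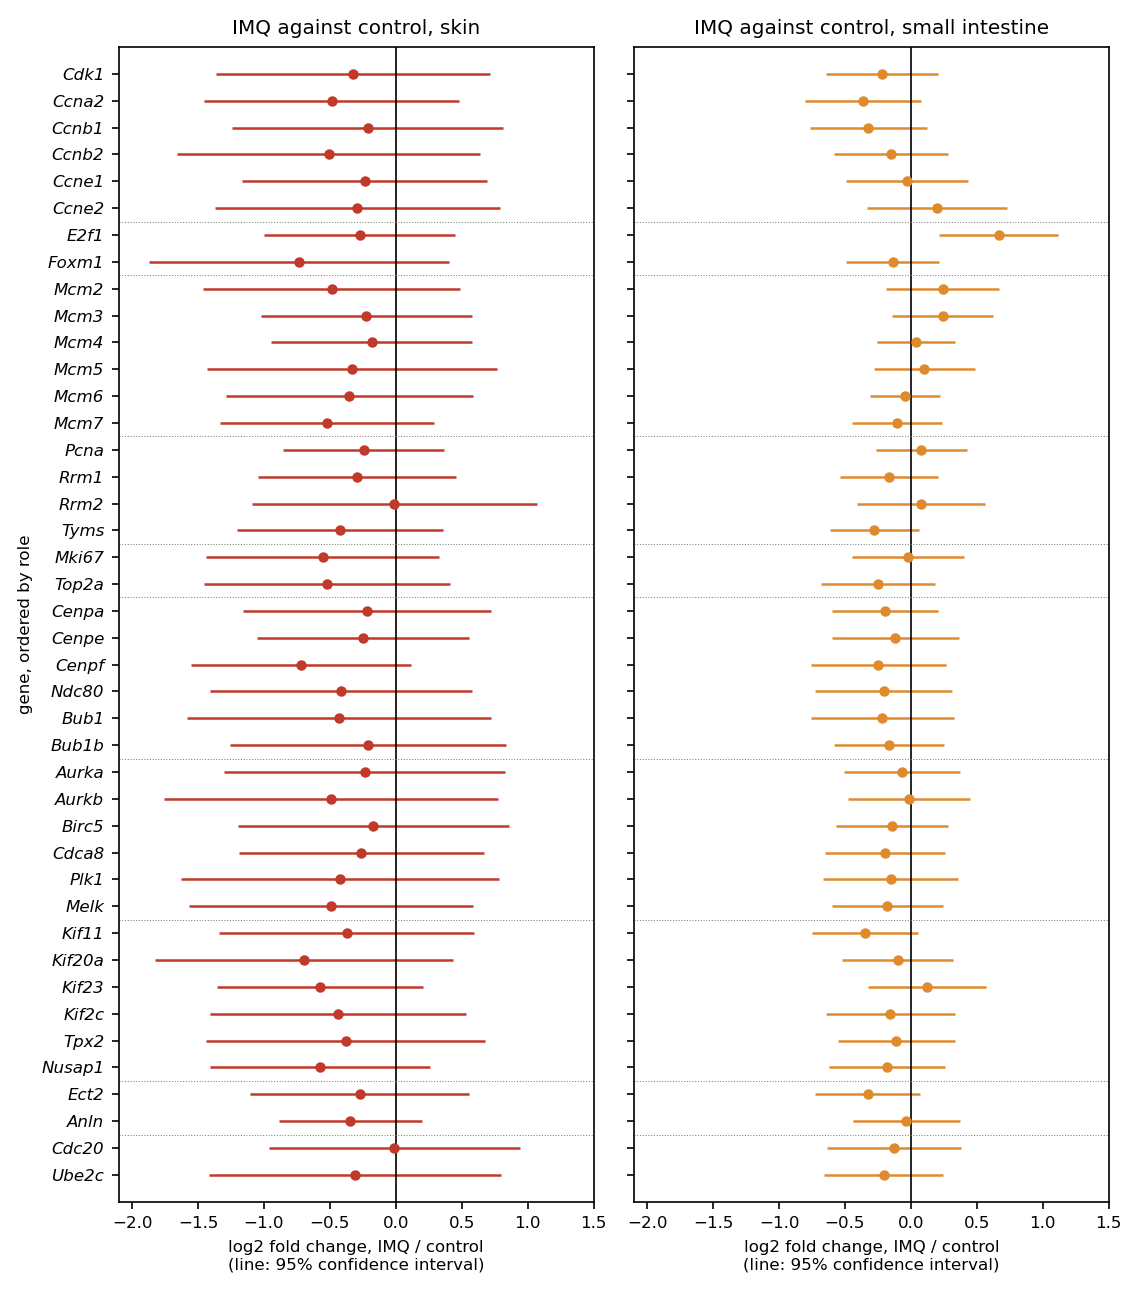
Log2 fold change of IMQ over control (horizontal axis) for each of the 42 genes (vertical axis, ordered by role) in skin and small intestine, with points for the edgeR estimate and lines for its 95% CI. All 42 estimates in skin are below 0 with wide intervals, and those in small intestine lie closer to 0, apart from *E2f1* at 0.67.

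The response to IMQ was not shown to differ between the tissues for any of the 42 genes. In the model of all 11 libraries, the edgeR test of the interaction called 0 of 42 genes at a Benjamini-Hochberg adjusted p under 0.05, against 2.55% of 18108 genes tested, and DESeq2 and limma-voom also called 0. The difference, coded as small intestine minus skin, was positive for 39 of 42 genes with a median of 0.26, with up to 15 negative values under the other scalings, and in edgeR it was negative for *Cdc20*, *Ccnb1* and *Ect2*. An unadjusted p under 0.05 was found for *E2f1* alone, with a difference of 0.94 (SE 0.38, 95% CI 0.09 to 1.79, Benjamini-Hochberg adjusted p = 0.245 in edgeR). Next came *Kif23* at 0.70 (SE 0.42, 95% CI -0.24 to 1.63, Benjamini-Hochberg adjusted p = 0.453 in edgeR) and *Mcm2* at 0.72 (SE 0.51, 95% CI -0.41 to 1.85, Benjamini-Hochberg adjusted p = 0.532 in edgeR). The values of *Mki67*, *Mcm3* and *Foxm1* were 0.53, 0.46 and 0.59, with 95% CIs that held 0. Leaving out skin control library 2 took out the lowest skin library of each of the 42 genes. Without it, the difference was positive for all 42 genes. Of these, 7 were called, all of them positive, against 5.9% of all genes and 4.06% in that direction. These were *E2f1* at 1.22 (adjusted p = 0.0125), *Foxm1* at 1.0 (adjusted p = 0.0114), *Mcm2* at 1.09 (adjusted p = 0.021), *Mcm5*, *Mcm6*, *Kif20a* and *Kif23*, with Benjamini-Hochberg adjusted p-values from edgeR. Without skin control library 3, the difference was negative for 23 of 42 genes.

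In the vehicle-treated mice, the small intestine and the skin were compared directly. The median log2 difference, coded as small intestine minus skin, was -0.04, next to 0.00 over all 18890 genes tested, and 24 of 42 values were negative. On the log2(FPKM + 0.01) scale, where the median of all genes was -0.45, that of the 42 genes was 0.07 above it and 36 of 42 values were negative, and under upper-quartile scaling their median stood at -0.05 relative to all genes. In limma-voom 16 of 42 were negative, and under TMM and upper-quartile scaling 28 and 30 were. edgeR called 2 of the 42 genes at a Benjamini-Hochberg adjusted p under 0.05, both of them lower in the intestine, against 51.9% of all genes called in either direction and 25.7% called lower. Without skin control library 2 it called 19, all lower in the intestine, and the median was -0.41. Of all genes, 53.1% were called in either direction and 26.3% were called lower. That fit left out the lowest skin library of each of the 42 genes.

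*Anln* (chr9:22331214-22389211 in GRCm38) was the gene with the clearest difference between the tissues. It had 3609, 2061 and 3342 normalized counts in skin control libraries 1, 2 and 3 and 1249, 1151 and 1617 in intestinal control libraries 7, 8 and 9, so the groups did not overlap. The log2 difference was -1.17 (SE 0.24, 95% CI -1.72 to -0.61, Benjamini-Hochberg adjusted p = 0.00436 in edgeR), and its adjusted p stayed at or under 0.0226 in each of the 15 alternative fits. *E2f1* had 1025, 486 and 1075 normalized counts in skin and 507, 403 and 405 in the intestine, and skin library 2 lay within the range of the intestine. Its log2 difference was -0.98 (SE 0.31, 95% CI -1.69 to -0.26, Benjamini-Hochberg adjusted p = 0.0297 in edgeR), and the call was lost when any of the 6 libraries other than skin control library 2 was left out (adjusted p up to 0.098) and in limma-voom (adjusted p = 0.0504). Of the next genes, *Rrm2* had a log2 difference of -0.72 (SE 0.45, Benjamini-Hochberg adjusted p = 0.228 in edgeR) and *Mcm4* one of -0.41 (SE 0.31, Benjamini-Hochberg adjusted p = 0.31 in edgeR), with the lower means in the intestine. The Aurora kinase gene *Aurka* stood at 0.61 (SE 0.44, Benjamini-Hochberg adjusted p = 0.29 in edgeR) and *Ube2c* at 0.58 (SE 0.46, Benjamini-Hochberg adjusted p = 0.341 in edgeR), with the higher means in the intestine. All 6 MCM genes had negative values in edgeR (3 of 6 in limma-voom), with a median of -0.20. All 6 mitotic kinases and passenger proteins had positive values (5 of 6 under TMM and upper-quartile scaling, 4 of 6 on the FPKM scale), with a median of 0.38, and none of these 12 genes was called.

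**Figure D5:**
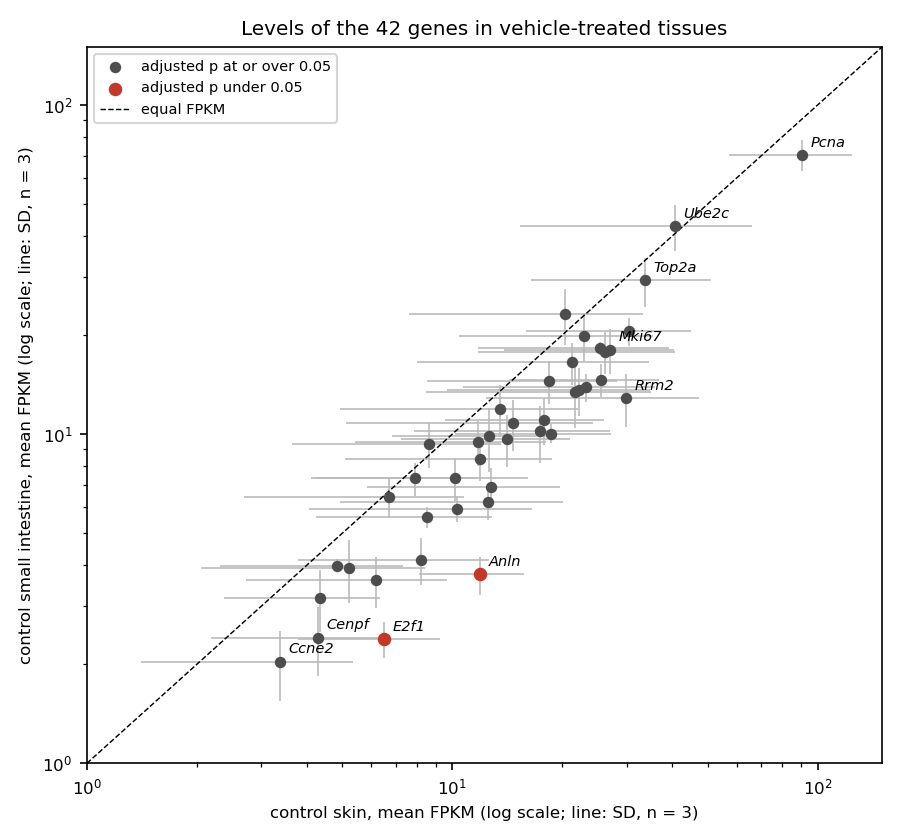
Mean FPKM of the 42 genes in control skin (horizontal axis) and control small intestine (vertical axis), both on log scales, with lines for the SD (n = 3 each) and a dashed line for equal FPKM. *Anln* and *E2f1*, the 2 called genes, lie farthest below the dashed line.

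Other genes of the cell cycle were compared in the same fits. Of 38 other replication genes, 0 were called in skin (35 negative, median -0.31, 0 at an unadjusted p under 0.05), and of 44 other mitosis genes 0 were called (43 negative, median -0.38, 1 at an unadjusted p under 0.05). The gene with the smallest p among them was *Ttk*, a kinase of the spindle checkpoint, at -0.57 (SE 0.23, Benjamini-Hochberg adjusted p = 0.194 in edgeR). Control library 2 was the lowest skin library for 38 of the 38 replication genes and 43 of the 44 mitosis genes. All IMQ libraries lay between control library 2 and the other skin controls for 36 of the 38 and 42 of the 44. For these genes the direction was therefore set in advance when library 2 was left out. In that fit 22 of 38 and 33 of 44 were called, all lower with IMQ. Of all genes, 12.1% were called in either direction and 6.66% were called lower. There a difference in treatment cannot be told apart from a difference in hair follicle content. In the intestine 0 of the 38 and 0 of the 44 were called (medians -0.05 and -0.14), and 0 and 1 had an unadjusted p under 0.05.

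The genes upstream of the cycle held called changes in skin. Of 21 genes of cyclin D, CDKs, RB and E2F factors, with MYC included, 1 rose and 3 fell (19% called, against 6.74% of all genes). The list was chosen with earlier results of these data known. Hair follicle markers were low in control library 2 and in the IMQ libraries, and their part in the values of these genes was not tested. *Myc* had 1964, 1905 and 2366 normalized counts in control libraries 1, 2 and 3 and 4004, 3293 and 3160.0 in IMQ libraries 4, 5 and 6. *Myc*, a factor that promotes growth and cycle entry, rose in all 3 IMQ libraries above all controls, with a log2 fold change of 0.75 (SE 0.14, 95% CI 0.41 to 1.08, Benjamini-Hochberg adjusted p = 0.0302 in edgeR). *Ccnd2* had 13838, 8537 and 17509.8 normalized counts in control libraries 1, 2 and 3 and 3754, 4140.1 and 4482 in IMQ libraries 4, 5 and 6. *Ccnd2*, the gene for cyclin D2, fell in all 3 IMQ libraries below all controls, with a log2 fold change of -1.69 (SE 0.26, 95% CI -2.30 to -1.07, Benjamini-Hochberg adjusted p = 0.0159 in edgeR). *E2f2* had 2803, 1580.1 and 2551 normalized counts in control libraries 1, 2 and 3 and 871, 1009 and 1018 in IMQ libraries 4, 5 and 6. *E2f2*, an E2F factor that activates transcription, fell below all controls as well, at -1.26 (SE 0.22, 95% CI -1.78 to -0.74, Benjamini-Hochberg adjusted p = 0.0238 in edgeR). *Mycn* had 1374, 204 and 1804 normalized counts in control libraries 1, 2 and 3 and 64.5, 51.4 and 87.0 in IMQ libraries 4, 5 and 6. *Mycn*, which is expressed in few adult cell types, fell with a log2 fold change of -4.06 (SE 0.78, 95% CI -5.90 to -2.22, Benjamini-Hochberg adjusted p = 0.0307 in edgeR), and control library 2 was again the lowest of the controls. Of 16 inhibitors of the cycle, 1 was called (6.25%, near the 6.74% of all genes called). *Cdkn2c* had 2927, 2852 and 3269.7 normalized counts in control libraries 1, 2 and 3 and 1556, 1446 and 1848 in IMQ libraries 4, 5 and 6. *Cdkn2c*, an inhibitor of CDK4 and CDK6, fell in all 3 libraries, at -0.90 (SE 0.13, 95% CI -1.21 to -0.59, Benjamini-Hochberg adjusted p = 0.0127 in edgeR), and its controls were close to each other. Without control library 2, *Myc* stood at 0.69 (adjusted p = 0.0409), *Ccnd2* at -1.92 (adjusted p = 0.00325), *E2f2* at -1.47 (adjusted p = 0.00343), *Mycn* at -4.55 (adjusted p = 0.00171) and *Cdkn2c* at -0.94 (adjusted p = 0.013) in edgeR with Benjamini-Hochberg adjustment. The calls did not all hold with fewer libraries, as *Myc* and *Ccnd2* were not called in 4 of the 6 fits with a library left out, *E2f2* and *Mycn* in 5 and *Cdkn2c* in 3, with adjusted p-values up to 0.137 in edgeR and the direction kept.

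In the intestine, 0 of the 21 genes of cyclin D, CDKs, RB and E2F factors were called by edgeR, with 5 at an unadjusted p under 0.05. *Ccnd1* had 4997, 6765 and 7675 normalized counts in control libraries 7, 8 and 9 and 3590.3 and 3229 in IMQ libraries 10 and 11. *Ccnd1*, the gene for cyclin D1, was below all controls in both IMQ libraries, at -0.93 (SE 0.20, 95% CI -1.39 to -0.46, Benjamini-Hochberg adjusted p = 0.0636 in edgeR), and it was called by DESeq2 (adjusted p = 0.00117). Of the 16 inhibitors, 1 was called (6.25%, against 2.95% of all genes), *Cdkn2a*, which rose. *Cdkn2a* had 6.51, 7.06 and 7.39 normalized counts in control libraries 7, 8 and 9 and 34.5 and 42.1 in IMQ libraries 10 and 11. Its log2 fold change was 2.43 (SE 0.33, 95% CI 1.66 to 3.19, Benjamini-Hochberg adjusted p = 0.00825 in edgeR), at a low level in all 5 libraries, and the call was lost without control library 9 (adjusted p = 0.0545) or IMQ library 11 (adjusted p = 0.0505). Between the control tissues, where edgeR called 51.9% of all genes, 3 of 38 replication genes were higher in the intestine and 2 of 44 mitosis genes were lower (*Cdc25b* and *Ttk*, at -1.12 and -0.72). Of the upstream genes 9 of 21 and of the inhibitors 7 of 16 were called in the same comparison, beside the same 51.9% of all genes, among them *Cdkn2b* at 3.31 and *Cdkn2c* at -2.24, the latter lower in the intestine.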

How the data were processed

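RNA of 6 skin and 5 small intestine libraries was analysed. Per the labels and the methods, the authors trimmed the reads with Trimmomatic, aligned them to mm10 with HISAT2 2.1.0 and quantified genes with StringTie 2.1.3b, after conversion with bcl2fastq 2.20.0. The authors deposited a read count per gene without normalization, the FPKM of each gene, and its TPM, which was not used. How strand and reads shared by several genes were counted is not given in the sources used here. Libraries held 44995414 to 58526384 counts, and 14694 of 45777 genes had no count in any library.

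A gene entered a comparison if each of its libraries had 1 count or more. Relative log expression normalization and the quasi-likelihood test of edgeR 4.0.16 in R 4.3.3 were used, p-values were adjusted over the whole table by Benjamini-Hochberg, and the threshold was 0.05. A normalized count is the count over the effective size of its library, times the mean effective size in the comparison. SE is the fold change over the root of the F statistic, and intervals cover the spread between libraries. The edgeR, DESeq2 and limma fits were tested on simulated counts with known fold changes. DESeq2 1.42.0, TMM or upper-quartile scaling, limma-voom and limma 3.58.1 on log2(FPKM + 0.01) and log2(FPKM + 1), filterByExpr, no filter, 1 fit of all 11 libraries, and leaving out each library were the alternatives.

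The 42 genes, the 4 lists of other cell cycle genes and the 15 lists of cell type markers were chosen with earlier results of these data known. Full values were given for the 6 genes with the smallest p in each comparison or those called, and with IMQ also for *Mki67*, *Top2a*, *Ccnb1*, *Mcm2*, *Pcna* and *E2f1*. Up to 4 genes of each other list were named. *Hoxc13*, *Shh*, *Lef1*, *Krt5*, *Krt6a*, *Krt14*, *Krt15*, *Krt17*, *Krt71*, *Myb*, *Olfm4*, *Apoa4*, *Fabp1* and the leading genes of the blood cell and muscle lists among the markers were named after their values were seen. Promoters came from RefSeq (GRCm38.p6), the first listed for each gene, and were searched with Python 3.11.15. The libraries of a group differed by more than sampling noise, with a chi-square per degree of freedom of 34.0 to 231, and each counted once.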

Additional observations from a re-analysis of the deposited data

Results flagged for a closer look

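Of the 119 other cell cycle genes, 3 were called for a different response to IMQ in the small intestine and the skin. This share was near the 2.55% called among all genes tested. The interaction test of edgeR with Benjamini-Hochberg adjustment was used, and values are small intestine minus skin on the log2 scale. *Myc* differed by -1.20 (SE 0.23, 95% CI -1.70 to -0.70, Benjamini-Hochberg adjusted p = 0.0214 in edgeR). It had 1704, 1926 and 1373 normalized counts in intestinal controls 7, 8 and 9 and 1155 and 1273 with IMQ, and a log2 fold change of -0.46 there, against 0.75 in skin. *Mycn* differed by 4.24 (SE 0.92, 95% CI 2.20 to 6.28, Benjamini-Hochberg adjusted p = 0.0397 in edgeR), with 97.6, 54.4 and 53.6 normalized counts in intestinal controls and 74.4 and 82.1 with IMQ. *Cdkn2c* differed by 0.96 (SE 0.20, 95% CI 0.51 to 1.40, Benjamini-Hochberg adjusted p = 0.0366 in edgeR), and its log2 fold change was 0.05 in the intestine and -0.90 in skin. With a library left out, the adjusted p from edgeR stayed under 0.05 in 6 of 11 fits for *Myc*, 3 of 11 for *Cdkn2c* and 1 of 11 for *Mycn*. The hair follicle markers moved with *Mycn* across the skin libraries, and their part in its difference was not tested.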

How the results depend on the processing

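Of the 42 genes, the number called ranged from 0 to 37 in skin when each library was left out, from 0 to 7 for the difference between tissues, and from 1 to 19 between the control tissues, in each case with the upper value without skin control library 2. In the small intestine it was 0 in each such fit and 1 with DESeq2, and between the control tissues it was 1 with limma-voom. The other alternatives stayed within 1.5 times the count given. Over all genes, the number called in skin was 3030 with DESeq2, 894 with limma on log2(FPKM + 1) and 258 to 2521 with a library left out. In the small intestine it was 1206 with DESeq2 and 294 to 801 with a library left out. For the difference between tissues it was 1281 with DESeq2, 301 without a filter and 144 to 1072 with a library left out. Between the control tissues, 4947 genes were higher and 4851 lower in the intestine, against 3152 and 7840 on log2(FPKM + 0.01). With a library left out, the number of negative values among the 42 genes went from 42 to between 31 and 42 in skin, from 33 to between 22 and 36 in the intestine, from 3 to between 0 and 23 for the difference between tissues and from 24 to between 13 and 37 between the control tissues. Among the single genes described with full values, 3 that were not called turned in 5 fits. With a library left out, the log2 fold change of *Ccnb1* in skin ranged from -0.60 to 0.041 (0.0076 without control library 1 and 0.041 without control library 3), that of *Pcna* in the intestine from -0.0062 (without control library 8) to 0.19, and that of *Mki67* there from -0.11 to 0.14 (0.14 without control library 9 and 0.0050 without IMQ library 11). The causes were not tested. The calls of *Ccnd2*, *E2f2*, *Myc*, *Mycn* and *Cdkn2c* in skin were lost in 4, 5, 4, 5 and 3 of the 6 fits with a library left out, without control library 1, IMQ library 4 and IMQ library 5 in each case. Where 1 library remains in a group it is assumed to vary like the others. No paired analysis was possible because the replicate numbers 1 to 11 are not shared between groups. With 2 or 3 libraries in each group, the spread between libraries and not the depth limits these comparisons.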

Other observations

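The markers of blood cells and of other tissue layers were summed in FPKM over each list. In skin, the neutrophil markers summed to 10.7 to 13.3 in controls and 7023 to 8568 with IMQ. With IMQ, *S100a8* and *S100a9* held 99.8% of this sum, while *Csf3r* was at 1.90 to 2.84 FPKM in controls and 17.8 to 20.4 FPKM with IMQ, and *Ly6g* at 0 to 0.038 FPKM and 0 to 0.173 FPKM. In the same libraries, the macrophage markers summed to 71.5 to 126 and 183 to 218, the T cell markers to 10.2 to 21.5 and 19.0 to 57.3, and the erythroid markers to 70.3 to 137 and 187 to 495. B cell markers were under 1 FPKM in each skin library, and germinal center B cell markers ranged from 32.8 to 38.0 and from 31.0 to 33.9. In the intestine, the macrophage markers summed to 28.6 to 42.9 in controls and 83.6 to 86.0 with IMQ, the T cell markers to 20.3 to 31.0 and 19.5 to 19.7, the B cell markers to 8.54 to 16.2 and 7.49 to 8.23, the germinal center B cell markers to 5.07 to 5.48 and 7.84 to 9.22, the neutrophil markers to 0.918 to 1.83 and 9.15 to 9.38, and the erythroid markers to 43.9 to 110.3 and 72.8 to 248. The lists of other tissue layers in skin controls and with IMQ were 3481 to 4953 and 2518 to 5249.6 for skeletal muscle, 1350.1 to 3233 and 1343 to 1944 for fibroblasts, 169 to 395 and 163 to 231 for adipocytes and 265 to 405 and 168 to 397 for smooth muscle. In the intestine, the smooth muscle markers summed to 244, 372 and 331 in control libraries 7, 8 and 9. The IMQ libraries 10 and 11 differed from each other there, at 397 and 127. Other sums were also led by few genes. *Bcl6* and *S1pr2* held 95.8% and 94.7% of the germinal center B cell sum in control and IMQ-treated skin. *Cd79a* held 86.1% and 93.4% of the B cell sum in control and IMQ-treated intestine, and *Csf3r* held 62.2% and 79.7% of the neutrophil sum there. *Hbb-bs* and *Hba-a1* held at least 99.1% of the erythroid sum in each group, and *Des* held 59.8% and 77.8% of the smooth muscle sum in control and IMQ-treated skin. The part of these cells in the values of the 42 genes was not tested.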
